A study of Mus musculus with 4 samples.

Results

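The effect of linoleic acid on mouse peritoneal macrophages was followed as the difference between 1 linoleic acid array and 1 control array, 2 of the 4 arrays of the series. All cells came from wild-type C57BL/6 mice of 8 to 12 weeks that had received 1 mL of 4% thioglycolate, a sterile irritant that draws macrophages into the peritoneal cavity, 3 days before harvest. Red cells were lysed, and cells that had not attached 3 h after plating were washed off. The linoleic acid group was kept for 6 h with 500 µM of this fatty acid (18 carbons, 2 double bonds) complexed to fatty acid-free bovine serum albumin (BSA). The control is labelled BSA only, while the treatment protocol describes a vehicle of ethanol and KOH. RNA of 3 samples was pooled for each array, and the labels do not say whether these came from separate mice. There is thus 1 measurement per group, with no estimate of the spread between cultures, no test and no interval, and each difference is one between 2 pools. The other arrays held palmitic acid (16 carbons, 0 double bonds) and oleic acid (18 carbons, 1 double bond) at the same concentration and time. Their values are set beside those of linoleic acid. Differences of the 3 fatty acids from the control share 1 control array, so no correlation or overlap between them is given.

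The members are genes. Values are log2 levels, and a difference is the linoleic acid level minus the control level, so that 0.26 is 1.2-fold and 0.58 is 1.5-fold. Probes with exactly 1 gene gave 19938 genes after probes of a gene were averaged. Of these, 11174 reached in at least 1 of the 4 arrays the median level of the whole table, 7.09, and were kept.

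Linoleic acid is the main polyunsaturated fatty acid of the diet and the precursor of arachidonic acid. Inside a cell, fatty acids are bound to coenzyme A and then stored in lipid droplets, built into phospholipids or oxidised in mitochondria, and they can act as ligands of PPAR nuclear receptors, which switch on storage and oxidation genes. Polyunsaturated fatty acids and sterols also bear on SREBP, membrane-bound transcription factors that are escorted by SCAP, held back by INSIG and, once cut free, switch on the genes of cholesterol and fatty acid synthesis. LXR receptors sense oxidised sterols and switch on cholesterol efflux.

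Most genes read nearly the same with linoleic acid as in the control, with a small shift upward. The median difference over the 11174 kept genes was 0.04, with quartiles of -0.03 and 0.12, and the 1st and 99th percentiles were -0.27 and 0.33. In all, 7288 genes (65.2%) lay above 0 and 3884 (34.8%) below. The shift follows the arrays' own medians over all probes, which were 7.13 for linoleic acid, 7.09 for the control, 7.08 for palmitic acid and 7.07 for oleic acid, and it was 0.01 after median centring of the arrays. A gene class is therefore described by its median beside the 0.04 of all kept genes. The median of all kept genes was 0.00 for palmitic acid and 0.01 for oleic acid. Class medians of different fatty acids thus stand on unlike baselines. The spread among genes, as a robust SD, was 0.110, beside 0.116 for oleic acid and 0.194 for palmitic acid. That value describes how genes differ between 2 arrays and is no replicate error.

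Few genes lay beyond a fixed fold. At least 1.5-fold higher were 4 genes (0.0358%) and at least 1.5-fold lower 4 genes (0.0358%), so higher genes made up 50% of those beyond 1.5-fold. Median centring of the arrays gave 22.2%, a repeated quantile normalisation 18.2% and loess centring 25%. At 1.2-fold, 361 genes (3.23%) were higher and 122 (1.09%) lower, and higher genes made up 74.7%. Of the genes beyond 1.2-fold, 50.1% were higher after median centring of the arrays, 41.5% after quantile normalisation and 47.3% after loess centring, so that the surplus of higher genes rests on the deposited scaling. By the same count oleic acid had 449 genes higher (4.02%) and 283 lower (2.53%), and palmitic acid 1354 (12.1%) and 974 (8.72%). Below 0 were 44.6% of kept genes with oleic acid and 49.9% with palmitic acid.

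**Figure D1:**
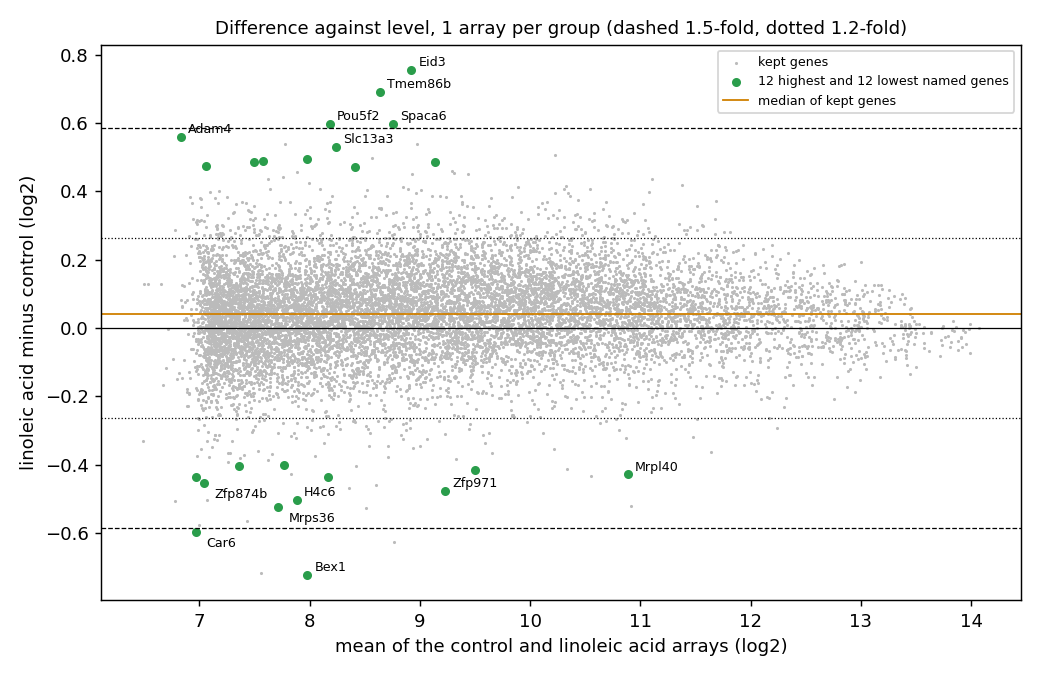
Difference between the linoleic acid and control arrays (vertical axis, log2) against the mean of the 2 levels (horizontal axis, log2) for the 11174 kept genes, 1 point per gene. Dashed lines mark 1.5-fold and dotted lines 1.2-fold, the orange line is the median of 0.04, and green points are the 12 named genes with the largest difference each way, from Eid3 at 0.76 to Bex1 at -0.72. Most genes lie between the dotted lines at all levels.

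The label of the cells was checked against marker genes. All 18 macrophage markers were kept, at a median control level of 12.56, and their median difference was -0.00, with a summed level in the linoleic acid array of 0.988 times that of the control. In pooled RNA, fewer cells of a type and less RNA per cell cannot be told apart. Of 15 mesothelial and fibroblast markers 9 were kept, and over all 15 the median difference was 0.06 and the summed ratio 1.06. The summed ratio was 1.08 for neutrophil markers, 1.14 for mast cell, 1.11 for endothelial, 1.04 for dendritic cell, 1.01 for T and NK cell, 0.994 for B cell and 1.00 for eosinophil markers, most of these genes being dim. The neutrophil sum is led by Csf3r (11.29 to 11.49), while S100a8 (-0.18) and Mmp8 (-0.12), the other kept markers, were lower. Kit (7.30 to 7.64) was the 1 kept mast cell marker. The part of other cells in any class below was not tested.

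The single genes with the largest differences came from many families, and several are known from other tissues. Eid3, a gene of the EID family of differentiation inhibitors, was at 8.54 (control), 9.44 (palmitic acid), 8.29 (oleic acid) and 9.30 (linoleic acid), the highest difference at 0.76. Its palmitic acid level was higher still. Tmem86b codes for lysoplasmalogenase, which splits ether phospholipids, and read 8.29, 8.58, 8.37 and 8.98 in the same order, a difference of 0.69. Spaca6, a sperm-egg fusion gene, read 8.46, 8.26, 8.36 and 9.06 (0.60). For Tmem86b and Spaca6 the linoleic acid array was the highest of the 4.

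Pou5f2, a POU homeodomain factor gene, completed the 4 genes beyond 1.5-fold, at 7.88 in the control and 8.48 with linoleic acid. Slc13a3, which codes for a sodium-coupled dicarboxylate transporter, went from 7.98 to 8.51, with 7.88 in the palmitic and 7.75 in the oleic acid array. Next were the co-chaperone gene Dnajb6 (0.49), the glutaredoxin gene Glrx3 (0.49), Klhl34 (0.49) and Stx16 (0.48), a syntaxin gene of the Golgi. These 4 genes were also above the control with palmitic acid, by at least 0.18, and Glrx3 by 0.49. Adam4 (0.56) and Tex22 (0.48) had control levels under the 7.09 of the filter, and with dim values raised to it their differences were 0.02 and 0.20. The last of the 12, Tbrg3, lay at 0.47.

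Among lower genes Bex1, known from neurons, read 8.34 (control), 8.19 (palmitic acid), 8.05 (oleic acid) and 7.62 (linoleic acid), the lowest difference at -0.72. The secreted carbonic anhydrase gene Car6 was next at -0.60, from 7.27 to 6.67, and -0.18 with dim values raised to the filter. Both other genes beyond 1.5-fold were gene models with systematic names, 1600029O15Rik and Gm10785, named here after their values were seen. Mitochondrial genes were among the next, with Mrps36 at 7.97, 7.63, 7.82 and 7.45 (-0.53) and the mitochondrial ribosome gene Mrpl40 at 11.10, 10.74, 11.05 and 10.67 (-0.43). For each of these, palmitic and linoleic acid were both below control and oleic acid, and the 2 probes of Mrps36 gave -0.55 and -0.50.

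The remaining genes of that ranking were H4c6 (-0.50), described with the histones below, the zinc finger genes Zfp971 (-0.48) and Zfp874b (-0.45), the hexosamine enzyme gene Gnpda2 (-0.44), Nxpe5 (-0.44), the neddylation gene Dcun1d5 (-0.42), the albumin gene Alb (-0.41) and Havcr2 (-0.40), which codes for the checkpoint receptor TIM-3. Havcr2 read 7.97 (control), 8.04 (palmitic acid), 8.19 (oleic acid) and 7.57 (linoleic acid), so the linoleic acid array alone lay below the control. With dim values raised to the filter, Zfp874b moved to -0.18 and Nxpe5 to -0.10.

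Set by class, 61 lists of genes had 10 or more kept members. The median was above 0 in 47 and below 0 in 14, and it was above that of all kept genes in 28. Counts above 0 in a class stand beside 65.2% of all kept genes, and counts below 0 beside 34.8%. Counts at least 1.2-fold higher stand beside 3.23% and those at least 1.2-fold lower beside 1.09%. The highest were the cholesterol synthesis enzymes (0.14), lipid-sensing G protein-coupled receptors (0.13), LXR targets (0.13), small nucleolar RNA (0.12), nuclear receptors (0.12), sterol sensing and import (0.11), immediate early genes (0.10) and inflammasome genes (0.10). The lowest were histone genes (-0.26), cytosolic ribosomal proteins (-0.09), other small RNA (-0.07), complex IV (-0.07) and complex I (-0.07). Among genes that macrophages should not use, the 32 kept olfactory and vomeronasal receptor genes had a median of 0.07 with 25 above 0. The filter takes a gene's highest array, so dim genes can enter through an array where they happened to read high, linoleic acid included. How far this choice shaped their median was not tested. It therefore does not show whether a class median of that size is set apart from genes read near background.

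**Figure D2:**
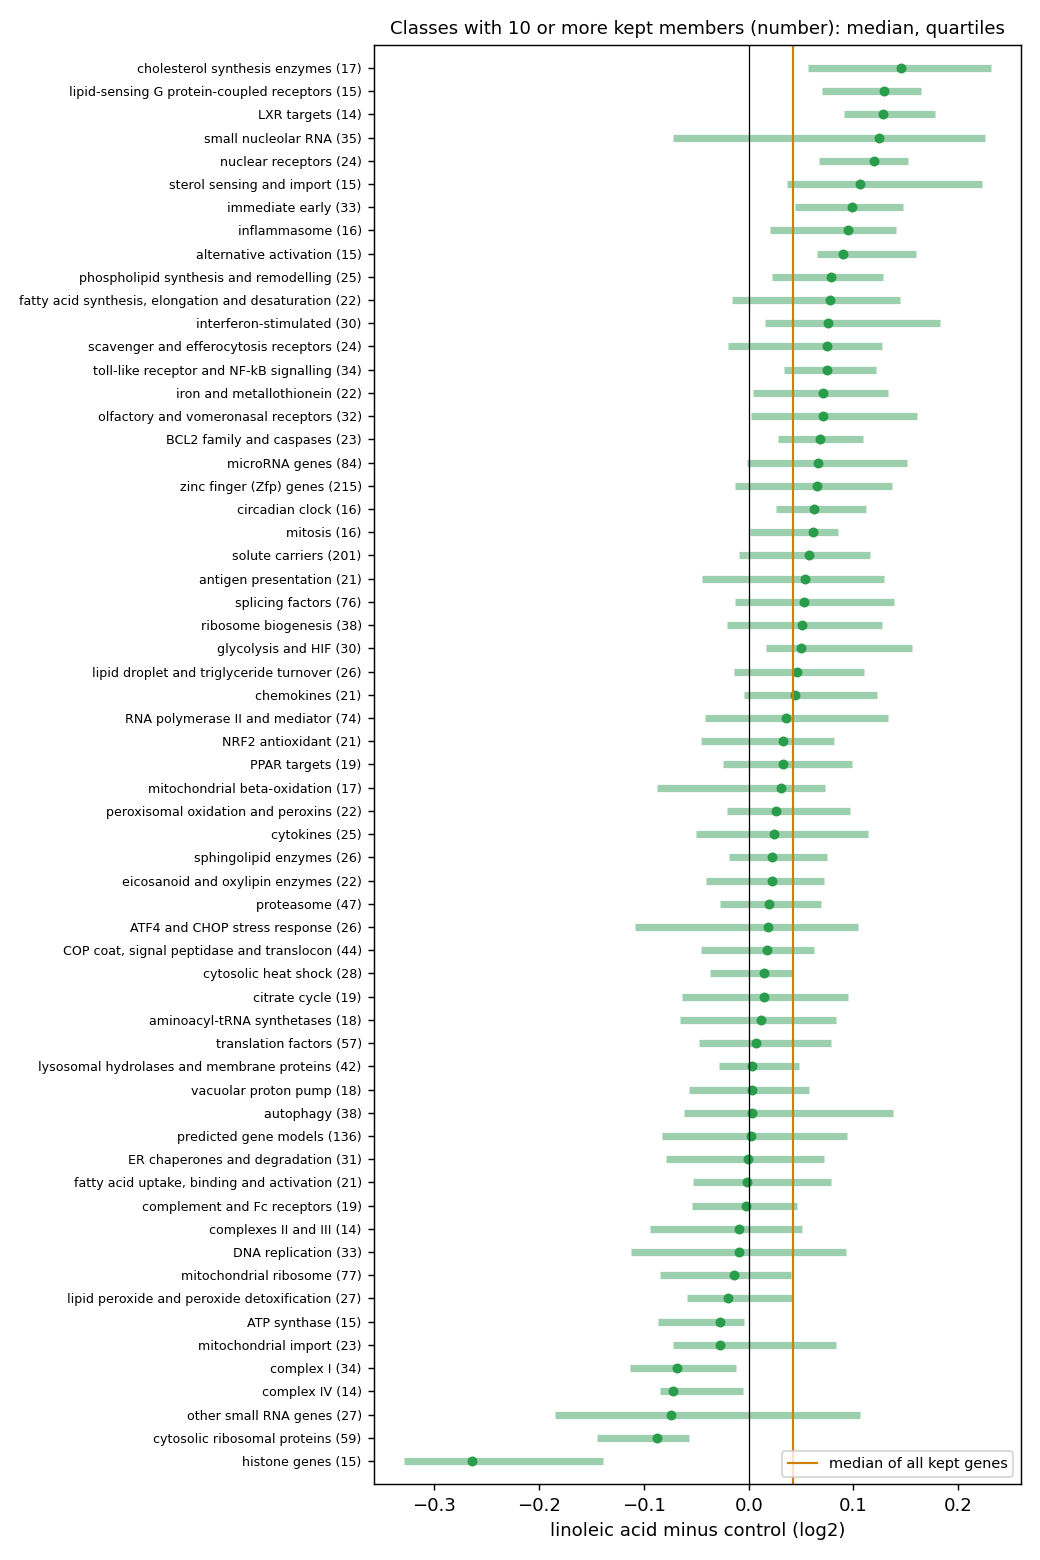
Median (points) and quartiles (bars) of the difference between linoleic acid and control (horizontal axis, log2) over the kept members of each of 61 gene classes, with the number of members in brackets. The black line is 0 and the orange line the 0.04 of all kept genes. Cholesterol synthesis enzymes stand at the top (0.14) and histone genes at the bottom (-0.26), and most classes lie within 0.1 of the orange line.

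Genes of cholesterol synthesis were slightly higher with linoleic acid. Of 20 listed enzymes of the pathway from acetyl-CoA to cholesterol 17 were measured and kept, and the others are not analysed here. Of the 17, 13 lay above 0 (76.5%, beside 65.2% of all kept genes). At least 1.2-fold higher were 3 (17.6%, beside 3.23%), and 0 were at least 1.2-fold lower. The median was 0.14, with quartiles of 0.06 and 0.23, beside 0.04 for all kept genes. The same 17 genes had a median of -0.59 with palmitic acid, with 17 below 0, and of -0.85 with oleic acid, with 15 below 0. Linoleic minus oleic acid, which leaves the control out, had a median of 0.94, and linoleic minus palmitic acid of 0.78.

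The early, mevalonate part of the pathway makes the isoprene units. Hmgcs1, which codes for the HMG-CoA synthase, read 11.57 (control), 10.69 (palmitic acid), 10.72 (oleic acid) and 11.80 (linoleic acid) (0.23). Pmvk, the gene of phosphomevalonate kinase, read 7.79, 7.25, 7.25 and 8.04 in that order (0.25), and Mvd, of the decarboxylase that follows it, read 9.75, 9.16, 8.75 and 10.01 (0.26). In each the linoleic acid array was the highest and the control the next. The mevalonate kinase gene Mvk lay at 0.11, reaching 9.10, and the isomerase gene Idi1 at 0.06 (from 11.20 to 11.26, beside 10.16 with palmitic and 10.12 with oleic acid).

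The isoprene units are then joined to squalene and closed to lanosterol. Fdps, of farnesyl diphosphate synthase, read 11.06, 10.61, 10.50 and 11.29 in control, palmitic, oleic and linoleic acid (0.23). The squalene synthase gene Fdft1 lay at 0.08, with its 2 probes at 0.01 and 0.16. Sqle, of squalene epoxidase, a rate-limiting step, read 10.69, 10.05, 9.66 and 10.90 (0.22). Lss, of the lanosterol synthase that closes the rings, read 9.90 (control), 8.77 (oleic acid) and 10.25 (linoleic acid), a difference of 0.35, beside -0.89 for palmitic acid. Along this stretch the 4 arrays kept 1 order, linoleic acid over control over palmitic acid over oleic acid.

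The lanosterol to cholesterol steps were less uniform. Hsd17b7, of a keto-sterol reductase, had the largest difference in the pathway, reading 10.89, 9.99, 9.84 and 11.32, a difference of 0.44 or 1.35-fold. The sterol desaturase gene Sc5d read 11.43, 10.93, 10.60 and 11.62 (0.19), Nsdhl 10.64, 10.06, 9.95 and 10.79 (0.14) and the lanosterol demethylase gene Cyp51 10.72, 9.94, 9.59 and 10.83 (0.11). Msmo1, the methylsterol oxidase gene, read 12.02, 11.39, 11.15 and 12.01, so that linoleic acid lay with the control and not above it. Ebp (-0.01), the last reductase gene Dhcr7 (-0.01) and Tm7sf2 (-0.08) were near their control levels, and these 3 genes also differed little with oleic acid, reading 10.01, 8.15 and 8.38 there beside 9.98, 8.13 and 8.41 in the control.

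**Figure D3:**
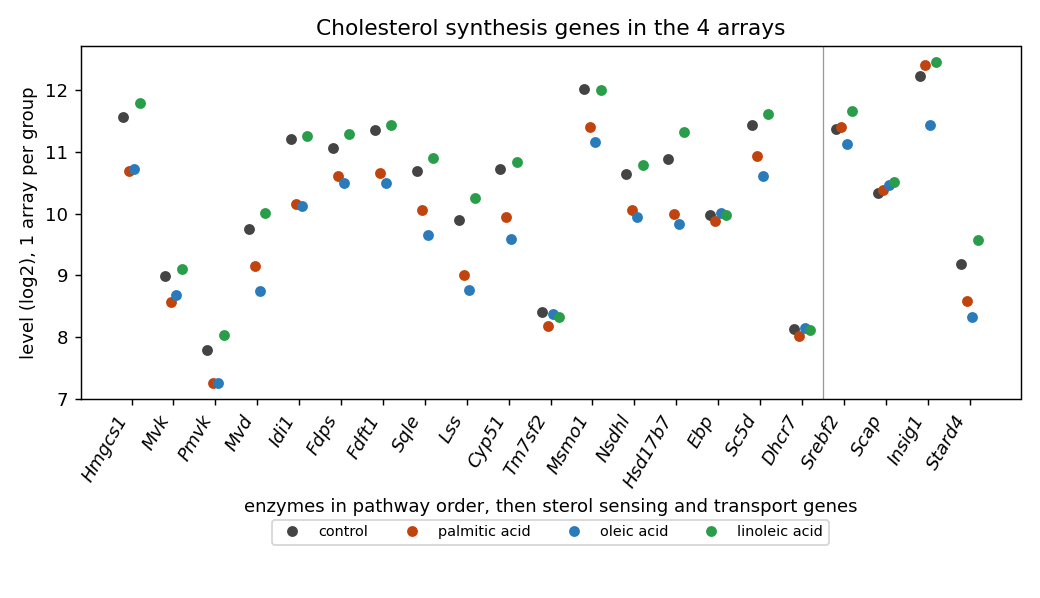
Level (log2, vertical axis) of the 17 cholesterol synthesis enzymes in pathway order and of 4 sterol sensing and transport genes in the control, palmitic, oleic and linoleic acid arrays, 1 point per array. Green linoleic acid points lie above the dark control points for most enzymes, by 0.44 at Hsd17b7 and 0.35 at Lss, while palmitic acid points lie below the control at all 17 enzymes and oleic acid points at 15.

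Promoter sequence is shown for 3 of these genes because the pathway's genes are known to share binding sites for SREBP and its partner NF-Y. Each runs 5′ to 3′ on the gene's strand, from 250 bases before to 50 bases after the start of transcription in RefSeq, build GRCm38.p6. Capitals mark CCAAT, the core NF-Y recognises, or its reverse complement ATTGG, and the sterol regulatory element letters TCACNCCAC, searched on both strands. Hsd17b7 lies at chr1:169969156-169969455 on the minus strand, Lss at chr10:76531355-76531654 on the plus strand and Hmgcs1 at chr13:119690101-119690400 on the plus strand.
Hsd17b7: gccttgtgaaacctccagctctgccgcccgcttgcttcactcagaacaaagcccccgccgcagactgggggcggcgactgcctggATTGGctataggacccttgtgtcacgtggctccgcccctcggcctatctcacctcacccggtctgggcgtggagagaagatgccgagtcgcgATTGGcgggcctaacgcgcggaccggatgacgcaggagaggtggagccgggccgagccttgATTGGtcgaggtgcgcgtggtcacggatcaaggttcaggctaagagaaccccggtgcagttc
Lss: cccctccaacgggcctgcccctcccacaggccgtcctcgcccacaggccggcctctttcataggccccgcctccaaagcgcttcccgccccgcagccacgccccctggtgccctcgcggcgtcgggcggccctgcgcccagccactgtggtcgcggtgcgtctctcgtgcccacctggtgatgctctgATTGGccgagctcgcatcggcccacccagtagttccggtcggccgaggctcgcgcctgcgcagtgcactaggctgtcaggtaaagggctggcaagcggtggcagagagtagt
Hmgcs1: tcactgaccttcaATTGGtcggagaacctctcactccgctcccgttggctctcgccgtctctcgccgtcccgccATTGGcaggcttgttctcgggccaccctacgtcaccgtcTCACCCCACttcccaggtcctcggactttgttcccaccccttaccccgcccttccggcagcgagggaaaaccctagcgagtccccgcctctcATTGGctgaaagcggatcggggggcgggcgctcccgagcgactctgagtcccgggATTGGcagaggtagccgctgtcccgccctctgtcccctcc

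Hsd17b7 holds 3 CCAAT letters, all reversed, Lss 1 and Hmgcs1 4 with 1 sterol regulatory element. Of the 17 enzymes 14 had a promoter in the table, and CCAAT stood in 14 of them, beside 37.4% of 32851 promoters and 41.3% of the kept genes that have one. GGGCGG, the core of a GC box, stood in 13 of 14, the exception being Pmvk, beside 35.7% of promoters and 68.2% of kept genes. TCACNCCAC stood in 1 of 14, beside 1.24% of promoters. In the sequences shown no marked match overlaps another. The matches say only which letters lie in this window.

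The genes that control sterol levels differed less evenly. Of 20 listed for sterol sensing and import 15 were kept, 12 of them above 0 (80.0%, beside 65.2% of all kept genes) and 2 at least 1.2-fold higher (13.3%, beside 3.23%), and the median was 0.11, beside 0.06 with palmitic acid and 0.01 with oleic acid. Stard4, of a carrier that moves cholesterol between membranes, read 9.18 (control), 8.59 (palmitic acid), 8.33 (oleic acid) and 9.57 (linoleic acid) (0.39), the pattern of the enzymes. Srebf2, of SREBP2 itself, read 11.37, 11.40, 11.12 and 11.66 (0.29). Insig1, of the protein that retains SCAP and SREBP, read 12.23, 12.41, 11.44 and 12.45 (0.22), so that the palmitic and linoleic acid arrays lay together above the control and oleic acid below.

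The escort gene Scap lay at 0.18 and the site-1 protease gene Mbtps1, whose product cuts SREBP, at 0.23. Gramd1a, of a sterol transfer protein at membrane contacts, lay at 0.25, the oxysterol-binding protein gene Osbp at 0.13, Erlin2 at 0.11, Rnf139 at 0.10, Npc1 at 0.06, Npc2 at 0.05 and Gramd1b at 0.02. Below 0 were Erlin1 (-0.11), Insig2 (-0.05) and the lysosomal lipase gene Lipa (-0.04). Insig2, unlike Insig1, is not known as an SREBP target, and Npc1, Npc2 and Lipa work in the lysosome.

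Fatty acid synthesis, elongation and desaturation, which SREBP1 governs, had 22 kept of 27 listed genes, 16 above 0. The median was 0.08, beside -0.16 with palmitic and -0.16 with oleic acid. At least 1.2-fold higher was 1 gene (4.55%, beside 3.23% of all kept genes). Fasn, of fatty acid synthase, was that gene, at 9.96 (control), 9.42 (palmitic acid), 9.01 (oleic acid) and 10.31 (linoleic acid) (0.35). Scd2, a desaturase that makes oleate from stearate, read 11.15, 9.87, 9.46 and 11.38 (0.23), and Scd1 9.20, 8.89, 8.77 and 9.38 (0.18). Linoleic acid was the highest of the 4 arrays for each of these 3.

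Acaca, of the acetyl-CoA carboxylase that commits carbon to fatty acids, lay at 0.20. The desaturases on the way from linoleic acid to arachidonic acid were near the control, with Fads2 at 9.75, 8.77, 8.83 and 9.83 (0.08) and Fads1 at 10.18, 10.05, 10.15 and 10.27 (0.10). The lowest members were the dehydratase genes Hacd4 (-0.18) and Hacd1 (-0.14). The fatty acid arrays thus differed at Fads2, by about 1 log2 unit between linoleic acid and both others, and by less at Fads1.

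LXR targets, which move cholesterol out of the cell or store it, had 14 kept members, 11 above 0 and 0 beyond 1.2-fold, with a median of 0.13, beside -0.14 with palmitic acid and -0.00 with oleic acid. Mylip, of an LXR-induced ubiquitin ligase, read 10.32 (control), 9.35 (palmitic acid), 9.52 (oleic acid) and 10.46 (linoleic acid) (0.14). Abca1, the cholesterol exporter, read 12.26, 11.96, 12.06 and 12.37 (0.11), and its partner Abcg1 11.53, 11.35, 11.79 and 11.73 (0.20). The efferocytosis receptor gene Mertk lay at 0.23, Rnf145 at 0.17 and Srebf1, of SREBP1, at 0.17, while Smpdl3a (-0.09) and Apoe (-0.01) did not lie above the control. Scd1 and Scd2 are members of this list too.

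The genes most known for a fatty acid load did not share this pattern. Hilpda, of a lipid droplet protein that restrains lipolysis, read 9.32 (control), 11.49 (palmitic acid), 11.66 (oleic acid) and 9.27 (linoleic acid) (-0.05). The droplet coat gene Plin2 read 12.21, 13.41, 13.43 and 12.32 (0.11), and Cpt1a, of the enzyme that admits fatty acids to mitochondria, 10.73, 11.66, 12.08 and 10.84 (0.11). Angptl4, of a secreted lipase inhibitor, read 7.27, 7.67, 8.22 and 7.29 (0.01). At all 4 genes linoleic acid lay nearer to the control than to the other fatty acids given at the same concentration. Plin2 and Cpt1a stayed slightly above the control in all 8 alternative settings.

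Over 19 kept PPAR targets, Hilpda, Plin2, Cpt1a and Angptl4 among them, 13 lay above 0 and 0 beyond 1.2-fold. Their median of 0.03 is under that of all kept genes and turned negative with each rescaling, to between -0.02 and -0.00, while it was 0.16 with palmitic acid and 0.18 with oleic acid. Plin1 (0.21) and Cpt2 (0.17) were its highest members and Fabp4 (-0.15) its lowest. Lipid droplet and triglyceride genes, 26 kept, had a median of 0.05 and 18 above 0. Fatty acid uptake, binding and activation genes, 21 kept, had a median of -0.00 with 10 above 0. Peroxisomal oxidation genes and peroxins, 22 kept, had 13 above 0, 0 beyond 1.2-fold and a median of 0.03 that was negative after each rescaling, from the thiolase gene Acaa1a (0.22) to the racemase gene Amacr (-0.25).

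Enzymes of mitochondrial beta-oxidation, 17 kept, had a median of 0.03 with 10 above 0, negative after each rescaling, beside 0.01 with palmitic acid and 0.15 with oleic acid. This list and the PPAR targets share Cpt1a, Cpt2, Slc25a20, Acadvl, Acadl, Acadm, Hadha, Hadhb, Acaa2 and Etfdh, so their medians are not separate results. Acadl, of the long-chain acyl-CoA dehydrogenase, read 10.47 in the control and 10.50 with linoleic acid, a difference of 0.03. Linoleic acid needs auxiliary enzymes that move or reduce its double bonds before it can be fully oxidised. Of the 6 kept genes listed for this 1 lay above 0, with a median of -0.04. Eci2, an enoyl-CoA isomerase gene, read 8.55, 8.13, 8.30 and 8.27 in control, palmitic, oleic and linoleic acid (-0.28), the others being Decr2 (-0.11), the dienoyl-CoA reductase gene Decr1 (-0.07), Pecr (-0.02), Ech1 (-0.01) and Eci1 (0.02). Of these genes Eci1 alone lay above 0 with linoleic acid. Palmitic acid, with 0 double bonds, gave a lower median of -0.09 with 5 below 0, and oleic acid 0.04 with 3 below 0.

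Phospholipid synthesis and remodelling genes, 25 kept, had 20 above 0 and a median of 0.08, with Tmem86b the highest, then Pgs1 (0.25) and Pcyt2 (0.17), and Mboat1 (-0.14) the lowest. Eicosanoid and oxylipin enzymes, which turn linoleic and arachidonic acid into signalling lipids, had 22 kept, 12 above 0 and a median of 0.02 that turned negative after each rescaling. Alox15, a lipoxygenase of linoleic acid, read 7.17 in the control and 7.24 with linoleic acid (0.07), near the filter. Ptgs2, the inducible cyclooxygenase gene, read 13.81 and 13.78 (-0.02).

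Receptors for lipids at the cell surface lay mostly above 0. Of 24 listed G protein-coupled receptors for fatty acids, eicosanoids, lysophospholipids and resolvins 15 were kept. Of these, 14 lay above 0 (93.3%, beside 65.2% of all kept genes) and 1 was at least 1.2-fold higher (6.67%, beside 3.23%). The median was 0.13, beside -0.27 with palmitic acid and 0.01 with oleic acid. The free fatty acid receptor genes Ffar1 (0.09), Ffar2 (0.08), Ffar3 (-0.04) and Ffar4 (-0.04) were under the filter and are not among the kept genes. Also under it were Gpr55 (0.07), Ltb4r1 (-0.13) and Ptger2 (-0.27). Gpr31b, whose human relative binds a lipoxygenase product of arachidonic acid, read 9.75, 8.81, 9.54 and 10.08 in control, palmitic, oleic and linoleic acid (0.34), with both of its probes at 0.34. Lpar1 lay at 0.26, the chemerin receptor gene Cmklr1 at 0.21, the niacin receptor gene Hcar2 at 0.18 and the prostaglandin receptor gene Ptger4 at 0.15. Gpr84, a receptor of medium-chain fatty acids, read 12.68, 11.98, 12.53 and 12.80 (0.12), and S1pr1 (-0.19) was the 1 kept member below 0. At Gpr31b, Ptger4 and Gpr84 the palmitic acid array was the lowest.

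Nuclear receptors and their coregulators, 24 kept, had 21 above 0 and 1 at least 1.2-fold higher (4.17%, beside 3.23% of all kept genes). The median was 0.12 with linoleic, 0.09 with palmitic and 0.01 with oleic acid, beside 0.04, 0.00 and 0.01 for all kept genes. Nr2c2, an orphan receptor gene, read 8.83, 9.32, 9.02 and 9.12 (0.29). The clock receptor genes Nr1d1 (0.22) and Nr1d2 (0.20), the coactivator gene Ncoa3 (0.20) and Nr4a2 (0.26) followed. Pparg, of the receptor that unsaturated fatty acids can bind, read 9.70, 10.21, 9.54 and 9.69, a difference of -0.01, and Nr2f6 (-0.16) was the lowest. Immediate early genes, which hold Nr4a2 too, had 33 kept, 29 above 0 and 0 beyond 1.2-fold, and their median of 0.10 was below the 0.12 with palmitic and 0.15 with oleic acid. Among them Dusp4 lay at 0.23, Myc at 0.21, Dusp1 at 0.19 and Egr3 at -0.06, and Dusp1 read 11.65 (control), 12.60 (palmitic acid), 12.52 (oleic acid) and 11.84 (linoleic acid).

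Genes of innate sensing lay above 0 more often than all kept genes (65.2%), by small amounts. Of 30 interferon-stimulated genes 29 lay above 0 (96.7%) and 4 were at least 1.2-fold higher (13.3%, beside 3.23%). The median was 0.08, beside 0.07 for the olfactory and vomeronasal receptor genes. Those medians were 0.04 and 0.04 after median centring, 0.08 and 0.02 after quantile normalisation, and 0.06 and 0.04 after loess centring. The interferon-stimulated median was 0.04 with palmitic and 0.01 with oleic acid, beside 0.00 and 0.01 for all kept genes. The antiviral GTPase gene Mx2 read 10.51 (control), 11.18 (palmitic acid), 10.38 (oleic acid) and 10.87 (linoleic acid) (0.37). Oas2, of an RNA-sensing oligoadenylate synthetase, read 11.34, 11.39, 11.40 and 11.69 (0.36), and Iigp1, of an immunity-related GTPase, 9.14, 8.83, 8.97 and 9.46 (0.32). Bst2, of tetherin, was the fourth at 0.26, while Irgm1 (-0.04) was the 1 member below 0. For Oas2 and Iigp1 the linoleic acid array was the highest, and for Mx2 the palmitic acid array.

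Toll-like receptor and NF-kB signalling genes, 34 kept, had 31 above 0 (91.2%, beside 65.2% of all kept genes) and 0 beyond 1.2-fold. Their median was 0.07, beside -0.12 with palmitic and -0.04 with oleic acid. On the deposited scale the olfactory and vomeronasal receptor genes had 0.07 too. After quantile normalisation the medians of these classes were 0.06 and 0.02. They were 0.05 and 0.04 after loess centring, and 0.04 and 0.04 after median centring. Relb (0.20), the adaptor gene Ticam1 (0.19) and Tlr1 (0.17) were the highest. Ly96, of the MD-2 subunit that binds lipopolysaccharide, read 12.86, 12.68, 12.70 and 12.65 (-0.21), below the control with each fatty acid. Inflammasome genes, 16 kept, had 14 above 0 (87.5%), 1 at least 1.2-fold higher (6.25%, beside 3.23% of all kept genes) and a median of 0.10. Among them were the sensor genes Nlrc4 (7.79 to 8.12, 0.33), Naip5 (0.22) and Nlrp3 (0.17), and Nek7 (-0.08) was the lowest.

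The inflammatory cytokine genes themselves read much the same in both arrays. Il1b read 13.78 in the control and 13.75 with linoleic acid, Tnf 13.76 and 13.71, and Il6 13.05 and 12.96. These lie among the 149 brightest genes, at or above 13 in the control, whose differences ran from -0.19 to 0.13 with a robust SD of 0.059, beside 0.110 for all kept genes. How far the signal can still vary at that brightness was not tested, so their values do not show that the genes were unchanged. The median of the 25 kept cytokine genes, 0.02, turned negative after median and loess centring. Of the 25, 14 lay above 0 and 1 was at least 1.2-fold higher (4%, beside 3.23% of all kept genes). That gene was Il10, of an anti-inflammatory cytokine, at 6.99 (control), 7.50 (palmitic acid), 7.49 (oleic acid) and 7.35 (linoleic acid) (0.37), dim and above the control with each fatty acid. Tnfsf10 lay at 0.26 and Csf2 at -0.18.

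Chemokine genes, 21 kept, had 14 above 0 and 2 at least 1.2-fold higher (9.52%, beside 3.23% of all kept genes). Their median was 0.04, that of all kept genes. The eosinophil attractant gene Ccl24 read 7.53, 7.45, 7.33 and 7.98 (0.44), and Cxcl9, an interferon-gamma target, 10.17, 8.88, 10.09 and 10.56 (0.39), while Cxcl14 (-0.20) was the lowest. Alternative activation genes, known from macrophages exposed to interleukin-4, had 15 kept, 13 above 0 and a median of 0.09. Ccl24 and Ccl17 (0.26) are in both lists, Socs1 lay at 0.32, and Arg1, of arginase, at -0.17. Of the members under the filter, Chil4 (-0.26), Retnla (-0.17), Rnase2a (-0.15), Chil3 (-0.13) and Clec10a (-0.01) lay below 0. Pdcd1lg2 (0.14), Mgl2 (0.09) and Cd163 (0.01), also under it, lay above. In both Ccl24 and Cxcl9 the linoleic acid array was the highest of the 4.

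Stress genes showed no common direction. The ATF4 and CHOP response, 26 kept, had 13 above 0 and a median of 0.02, negative after each rescaling, beside 0.21 with palmitic acid. Ddit3, of the transcription factor CHOP, read 8.66 (control), 9.57 (palmitic acid), 8.87 (oleic acid) and 8.85 (linoleic acid) (0.18). Atf4 lay at 0.07 and Cebpg at 0.24, while Chac1 (8.36, 9.62, 8.49 and 8.16, -0.20) and the asparagine synthetase gene Asns (-0.17) lay below the control. The targets thus lay on both sides of 0.

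Endoplasmic reticulum chaperones and degradation genes, 31 kept, had 15 above 0 and a median of -0.00, beside 0.14 with palmitic acid, with Sec24d (0.22) and Syvn1 (0.21) the highest, Pdia3 (-0.21) and Dnajb9 (-0.17) the lowest, and the chaperone gene Hspa5 at -0.07. NRF2 antioxidant genes, 21 kept, had 13 above 0 and a median of 0.03 that turned negative after each rescaling. Txnrd1 lay at 0.20, Prdx1 at -0.12, and the heme oxygenase gene Hmox1 read 11.70, 12.34, 11.55 and 11.90 (0.19). Cytosolic heat shock genes, 28 kept, had 16 above 0 and 1, Dnajb6, at least 1.2-fold higher (3.57%, beside 3.23% of all kept genes). Their median was 0.01, negative after each rescaling, beside 0.17 with palmitic acid, and Hspb1 (-0.18) was the lowest. Polyunsaturated chains are the ones most open to peroxidation. The 27 genes of lipid peroxide and peroxide detoxification had 12 above 0 and a median of -0.02, which stayed below 0 in each of 8 alternative settings. With palmitic acid, which is saturated, the median was lower at -0.08, with 17 below 0. With oleic acid it was 0.05, with 10 below 0.

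Histone genes were the lowest class. Of 28 listed 15 were kept, 14 of them below 0 and 8 at least 1.2-fold lower (53.3%, beside 1.09% of all kept genes), and the median was -0.26. The median was -0.31 with palmitic acid, with 15 of 15 below 0, and -0.04 with oleic acid, with 8 of 15 below 0, and linoleic minus oleic acid had a median of -0.26. Most of these genes code for the core histones made in bulk when DNA is copied, from messages that end in a stem-loop and lack a poly(A) tail. H4c6 read 8.14 (control), 7.77 (palmitic acid), 8.00 (oleic acid) and 7.63 (linoleic acid) (-0.50). H2bc4 read 11.82, 11.47, 11.72 and 11.46 (-0.36), H4c14 10.40, 10.04, 10.40 and 10.04 (-0.35) and H2ac15 9.73, 9.43, 9.76 and 9.42 (-0.31). In each the palmitic and linoleic acid arrays lay together, below the control and oleic acid arrays.

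The others beyond 1.2-fold were H2bc14 (-0.35), H1f2 (-0.28), H4c3 (-0.27) and H4c4 (-0.26). The 1 gene above 0 was H1f10 (0.20), a linker histone that does not depend on replication and entered through its name. Copies of 1 histone type are nearly identical in their coding sequence, so probes may read several of them, and the 15 genes are not independent. DNA replication genes, 33 kept, had a median of -0.01 with 16 above 0, and mitosis genes, 16 kept, of 0.06 with 12 above 0. How the labelling reads messages without a poly(A) tail was not tested.

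Cytosolic ribosomal protein genes lay slightly and evenly below 0. Of 59 kept 55 were below 0, beside 34.8% of all kept genes, with a median of -0.09 and quartiles of -0.14 and -0.06. Only 1 (1.69%, beside 1.09% of all kept genes) was at least 1.2-fold lower, Rpl14, from 8.53 to 8.26 (-0.27). Rpl23a lay at -0.25, Rpl24 at -0.24 and Rpl36a at -0.20, and the highest was Rpl30 at 0.06. The median was -0.06 with palmitic acid, with 50 below 0, and -0.03 with oleic acid, with 42 below 0. Many of these genes have processed copies in the genome that probes may also read.

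Subunits of complex I, complex IV and ATP synthase lay below 0 more often than above. Complex I, the entry point for electrons from NADH, had 34 kept, 27 below 0 and 0 beyond 1.2-fold, with a median of -0.07, beside -0.13 with palmitic acid (31 below 0) and -0.00 with oleic acid (17 below 0). Ndufc1 read 10.31, 9.96, 10.21 and 10.09 in the 4 arrays (-0.21) and Ndufb6 11.39, 11.20, 11.34 and 11.20 (-0.19), while Ndufs3 was the highest at 0.09. Complex IV had 10 of 14 kept genes below 0 and a median of -0.07, and ATP synthase 12 of 15 and -0.03. Complexes II and III were split, with 7 of 14 below 0 and a median of -0.01. Uqcr11 (-0.32) of complex III was the lowest there, and Sdha (0.13) and Sdhc (0.11) of complex II and Cyc1 (0.11) of complex III the highest. Mitochondrial import genes (23 kept) had a median of -0.03 and mitochondrial ribosome genes (77 kept) of -0.01. These class medians stayed below 0 in each alternative setting that left 10 or more members.

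**Figure D4:**
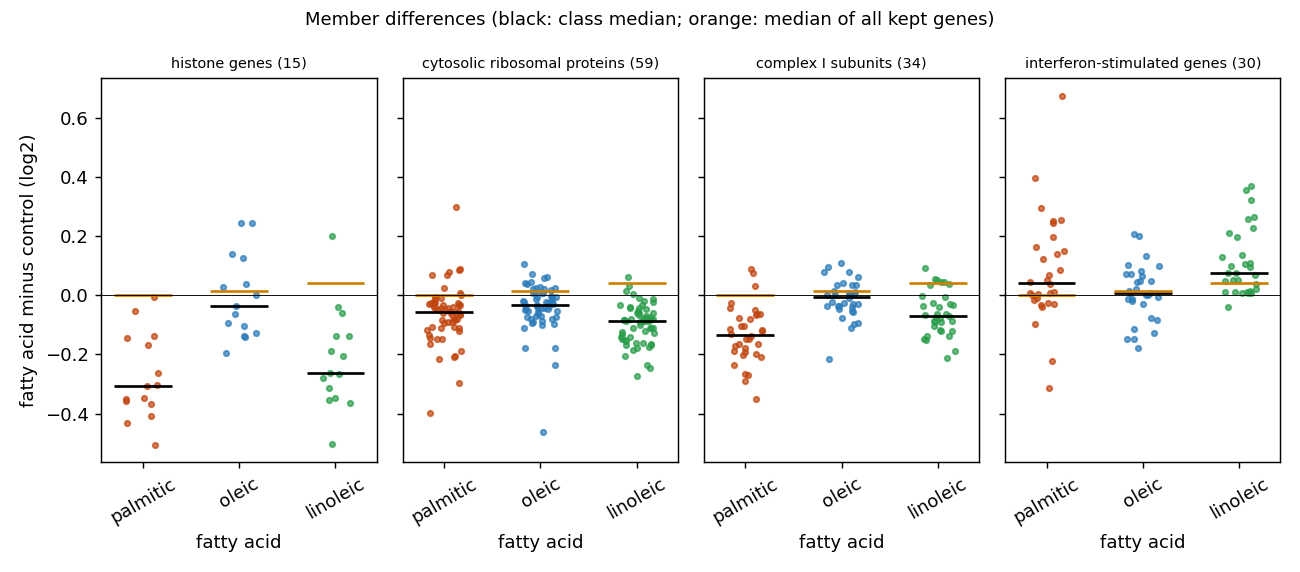
Difference from the control (vertical axis, log2) of each kept member of 4 gene classes in the palmitic, oleic and linoleic acid arrays, 1 point per gene, with the class median in black and the median of all kept genes in orange. The 3 differences share 1 control array. Histone medians are -0.31, -0.04 and -0.26, ribosomal protein medians -0.06, -0.03 and -0.09, complex I medians -0.13, -0.00 and -0.07, and interferon-stimulated medians 0.04, 0.01 and 0.08.

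Histone, ribosomal protein and complex I genes are short, and the difference varied with gene length over all protein-coding genes. Among 10726 kept protein-coding genes with a RefSeq gene model, length on the genome, introns included, went with a median difference of -0.04 under 1 kb (99 genes), -0.00 from 1 to 3 kb (569), 0.02 from 3 to 10 kb (2169), 0.04 from 10 to 30 kb (3651), 0.06 from 30 to 100 kb (3034) and 0.07 over 100 kb (1204). The share of genes below 0 went from 61.6% in the shortest group to 25.4% in the longest. With palmitic acid the medians ran from -0.12 to 0.04 and 0.03 in the last groups, and with oleic acid from -0.01 up to 0.03 and down to -0.01. Without the histone, ribosomal protein, respiratory chain and mitochondrial ribosome genes, linoleic acid medians were -0.01 in the shortest group (83 genes) and 0.07 in the longest. The median length was 504 bases for the histone genes, 3139 for the ribosomal protein genes and 7744 for complex I. Medians above 0 were read for immediate early genes (5254 bases, 0.10) and for olfactory and vomeronasal receptors (971.5 bases, 0.07). How far the filter shaped the receptor median was not tested. Small nucleolar RNA (91 bases, median 0.12) is not protein-coding and lies outside the length groups. The part of gene length in the class differences was not tested.

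**Figure D5:**
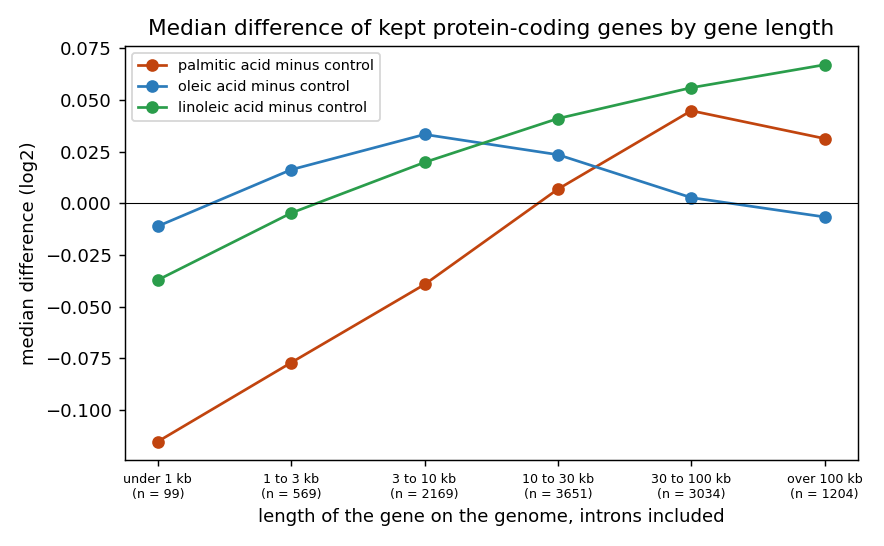
Median difference from the control (vertical axis, log2) of kept protein-coding genes in 6 groups of gene length (horizontal axis, with the number of genes), for the palmitic, oleic and linoleic acid arrays. The linoleic acid line goes from -0.04 in genes under 1 kb to 0.07 in genes over 100 kb, and the oleic acid line has its highest point, 0.03, at 3 to 10 kb.

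Small RNA genes spread more widely than coding genes. Small nucleolar RNA, guides for the chemical modification of ribosomal RNA that are mostly cut from introns, had 35 kept, 24 above 0 (68.6%, beside 65.2% of all kept genes) and 7 at least 1.2-fold higher (20%, beside 3.23%), and the median was 0.12, with quartiles of -0.07 and 0.23. Of the 7, Snord85 read under the filter in both arrays. Snord16a read 8.92, 9.48, 8.97 and 9.31 in control, palmitic, oleic and linoleic acid (0.39), Snord53 9.45, 9.86, 9.61 and 9.83 (0.38) and Snora70 8.00, 8.43, 8.19 and 8.35 (0.34). Snord15a and Snord35b were the lowest, each at -0.23. In the first 3 the palmitic acid array was the highest.

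Other small RNA genes, a group by name that holds some of the nucleolar RNA genes again, had 27 kept and 17 below 0. At least 1.2-fold lower were 5 (18.5%, beside 1.09% of all kept genes). The median of -0.07 turned positive, to 0.03, without the brightness filter. Rprl1, a copy related to the RNA of ribonuclease P, read 8.77, 8.45, 8.61 and 8.24 (-0.53), the Y RNA gene Rny1 7.04, 7.10, 6.93 and 6.53 (-0.51) and Scarna13 10.77, 10.46, 10.63 and 10.34 (-0.43). Rprl2 lay at -0.41 and Vaultrc5 at -0.35. Rny1 read under the 7.09 of the filter in both the control and the linoleic acid array, and with dim values raised to it the difference was 0. For Rprl1 and Scarna13 the linoleic acid array was the lowest and the palmitic acid array the next.

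The following microRNA are shown by sequence because 2 pairs that share a seed could be followed, and they were chosen after their values were seen. MicroRNA guide the silencing of messages through their seed, bases 2 to 8, here in capitals within the mature sequence of RefSeq, build GRCm38.p6, written 5′ to 3′. The first pair lies at chr19:46342790-46342811 on the plus strand (mmu-miR-146b-5p) and chr11:43374435-43374456 on the minus strand (mmu-miR-146a-5p). The second lies at chrX:19146901-19146923 (mmu-miR-222-3p) and chrX:19146307-19146329 (mmu-miR-221-3p), both on the minus strand.
mmu-miR-146b-5p: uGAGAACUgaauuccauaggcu
mmu-miR-146a-5p: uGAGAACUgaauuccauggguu
mmu-miR-222-3p: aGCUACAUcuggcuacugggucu
mmu-miR-221-3p: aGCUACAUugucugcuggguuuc

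The miR-146 family is known to dampen toll-like receptor signalling. Mir146b read 7.50 (control), 7.28 (palmitic acid), 7.88 (oleic acid) and 8.04 (linoleic acid) (0.54). Its seed partner Mir146, the gene of miR-146a, read 7.19, 6.57, 6.26 and 7.33 (0.15), so that oleic acid lay above the control at the one and below it at the other. The clustered genes Mir222 and Mir221 read 10.15, 10.67, 9.84 and 10.55 (0.39) and 10.77, 11.13, 10.56 and 10.99 (0.21), both with palmitic and linoleic acid above the control and oleic acid below. Mir505 read 10.34, 10.21, 9.94 and 10.75 (0.41). Over 84 kept microRNA genes 62 lay above 0, with a median of 0.07. At least 1.2-fold higher were 10 (11.9%, beside 3.23% of all kept genes) and lower 1 (1.19%, beside 1.09%). The lower one, Mir196a-2 (-0.33), read under the 7.09 of the filter in both arrays, and with dim values raised to it the difference was 0. The array value is that of the gene's probe, and whether it reads the precursor or the mature form is not given in the sources used here.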

How the data were processed

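RNA pooled from 3 samples per group was hybridised to 1 Affymetrix Gene 1.0 ST array per group. The values deposited by the authors are log2 levels made with RMA (background correction, joint quantile normalisation, probe summary), per the submitters' processing notes. Its version and the genome build used are not given in the sources. Of 35556 probes, the platform annotation lists 1 gene for 21789, several for 1621 and none for 12146. Probes of a gene were averaged, and a gene was kept when its highest value in the 4 arrays was at or above 7.09, a filter on brightness and not a detection call.

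With 1 array per group, differences were taken per gene and counted at 1.5-fold and 1.2-fold, with no test; the number of arrays limits the precision. Gene lists, members and the genes to name were chosen with earlier results of these data known. Named were the 12 largest differences each way, leaving out systematic gene models, small RNA, receptor cluster genes and pseudogenes, 30 genes set in advance (some are not reported here, and Pdk4 was below the filter), all sterol genes, and up to 4 members each way of each described list. Lists were described when their median was among the 8 highest or 8 lowest or when they concern fatty acids, stress or inflammation. Outside this rule, complexes II and III, the mitochondrial ribosome, DNA replication, mitosis, microRNA and olfactory receptor lists are given beside related ones. Alternatives were 3 rescalings (centring each array on its median, repeated quantile normalisation, loess centring with a fraction of 0.3), no filter, a stricter one (75th percentile), one on the 2 arrays alone, the brightest probe per gene, and dim values set to the filter. The counting was tested on simulated data. Python 3.11.15, numpy 2.4.6, pandas 2.3.3, statsmodels 0.14.6 and matplotlib 3.10.9 were used.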

Additional observations from a re-analysis of the deposited data

Results flagged for a closer look

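The cholesterol synthesis enzymes had a median difference from the control of 0.14 with linoleic acid, opposite in sign to -0.59 with palmitic acid and -0.85 with oleic acid. The 3 values share the control array and the difference between them was not tested.

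Among 5620 bright probes without a listed gene, which enter no comparison above, linoleic acid put 274 (4.88%) at least 1.5-fold above the control and 93 (1.65%) below, beside 0.0358% each way of kept genes. Their median difference was 0.06 and their robust SD 0.239, and palmitic acid put 657 of them, and oleic acid 33, at least 1.5-fold above. What these probes read is not named here.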

How the results depend on the processing

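The median of the cholesterol synthesis enzymes stayed above 0 in all 8 alternatives, from 0.09 (loess centring) to 0.17. The median of all kept genes ranged from -0.00 to 0.05, below 0 after quantile normalisation and loess centring. Against 4 genes at least 1.5-fold higher and 4 lower as reported, there were 2 and 7 after median centring, 2 and 9 after quantile normalisation, 20 and 9 without a filter, 2 higher after loess centring and 1 lower with the stricter filter. At 1.2-fold, against 361 higher and 122 lower, there were 193 and 192 after centring, 165 and 233 after quantile normalisation, 181 and 202 after loess centring, 888 and 318 without a filter, and 194 and 43 with the stricter filter; filters change how many genes are counted, and the cause of the other moves was not tested. Signs were followed for 80 of the named genes, among them those named for the largest differences each way. Of these, 75 kept the sign of their difference in every alternative that gave a value. The exceptions were Angptl4, Acadl, Il1b, Ptgs2 and Gramd1b. Some alternatives gave no value for some of the 80. More genes than these are named above, and the count does not cover the others. Of 60 lists other than the cholesterol enzymes, 36 kept the sign of their median, and relative to all kept genes 51 of 61 did. No replicate could be left out. No paired analysis was possible because each group has 1 array. With 1 pool per group, no difference can be set against the spread between cultures.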
